A study of Rattus norvegicus with 2 samples.

Results

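The strong paired Chd7 and Sox10 sites are places in the rat genome where a high-scoring Chd7 peak and a high-scoring Sox10 peak lie on top of each other. They were selected by the scores that the peak caller gave, by how closely the peak centres coincide and by the width of the Sox10 peak. A Chd7 peak and a Sox10 peak on chromosomes 1 to 20 had to overlap by at least 1 bp, with a Chd7 score of at least 100, a Sox10 score of at least 500, centres no more than 200 bp apart and a Sox10 peak narrower than 1500 bp. Bins of 1 Mb with 30 or more Chd7 peaks were left out. The rule found 815 sites among the 6283 overlapping pairs of the series, or 13.0%. Each site had its own Chd7 peak and its own Sox10 peak, so the sites hold 815 distinct peaks of each protein.

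Chromatin immunoprecipitation followed by sequencing was used to map both proteins in primary oligodendrocytes of the Sprague Dawley rat. Progenitors had differentiated in culture for 3 days with the thyroid hormone T3, and this background was the same for both libraries. There was 1 library per antibody, against Chd7 or against Sox10, and the labels do not say how many animals or cultures went into it. The deposited lists hold 15310 Chd7 peaks and 38915 Sox10 peaks, each with a position on build rn5 and a caller score, and the read depth behind the peaks is unknown. The data have no replicate error, so no value below carries a test. The 95% exact (Clopper-Pearson) intervals cover counting error over peaks only, and neighbouring peaks are not independent.

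Oligodendrocytes make the myelin of the central nervous system. Sox10 is a transcription factor of the SoxE family that binds short DNA motifs through its HMG box and is required for oligodendrocytes to mature and to express myelin genes. Chd7 is a chromatin remodeler that uses ATP to move nucleosomes and carries chromodomains that contact modified histone tails. Mutations in the human gene CHD7 cause CHARGE syndrome, and the title of the study concerns the interaction of Chd7 with Sox10 in the timing of myelination.

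The rule removed most pairs through the scores. Of the 6283 pairs, 6208 lay on chromosomes 1 to 20 and 5919 of these outside the dense bins. A Sox10 score of at least 500 left 1900 pairs, the width limit 1690, the Chd7 score 880 and the centre distance 815. Among pairs that failed a single criterion, 683 failed on the Chd7 score, 661 on the Sox10 score, 65 on the centre distance and 39 on the Sox10 width. The score criteria therefore cut through a continuous cloud of pairs, as the plot of both caller scores shows.

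**Figure D1:**
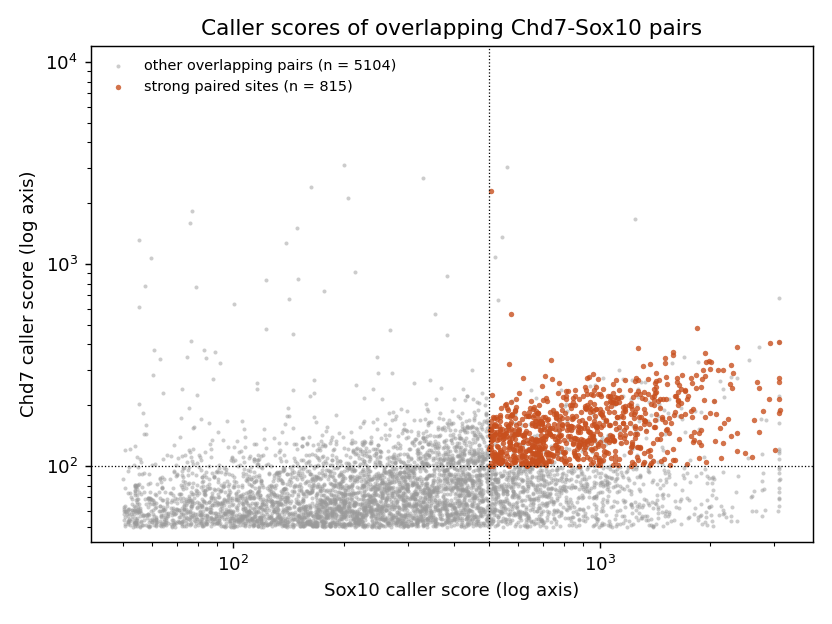
Caller scores of the overlapping pairs on chromosomes 1 to 20 outside the dense bins, with Sox10 on the horizontal and Chd7 on the vertical log axis; each point is 1 pair and the dotted lines mark scores of 500 and 100. The 815 strong paired sites (orange) fill the upper right field next to 5104 other pairs (grey), and a single strong paired site lies far above the rest, with a Chd7 score of 2292.

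Values close to the thresholds show how little separates the sites from the next pairs. The lowest Chd7 scores inside the rule ran from 100.03 to 100.6 over 5 sites, and the highest just outside it from 99.63 to 99.82. The lowest Sox10 scores inside ran from 500.49 to 501.28, and the highest outside from 495.11 to 499.83. For the centre distance the last 5 sites lay at 192 to 199 bp and the first 5 excluded pairs at 202 to 206 bp. The widest Sox10 peaks inside were 1489 to 1499 bp wide, and the narrowest outside were 1501 to 1523 bp wide.

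The scores that chose the sites were mostly moderate for Chd7 and wide-ranging for Sox10. The Chd7 score had a median of 147 (quartiles 121 and 185, lowest 100.03, highest 2292). The Sox10 score had a median of 837 (quartiles 639 and 1175, lowest 500.49, highest 3104). A Chd7 score of 200 or more was found at 161 sites and one of 300 or more at 21, while 287 sites had a Sox10 score of at least 1000. Only 14 of the 815 sites exceeded both thresholds by a factor of 3 or more.

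Within the sites, the stronger Sox10 peaks went with stronger and wider Chd7 peaks. Across the 815 sites the Spearman's rho between both scores was 0.39. It is given as a description, since all points come from the same pair of libraries and both scores were used to choose the sites. At the 344 sites with a Sox10 score of 500 to 750, the Chd7 score had a median of 132 (quartiles 113 and 158). It was 151 (127 and 182) at the 184 sites from 750 to 1000, and 170 (134 and 210) at the 182 sites from 1000 to 1500. At the 105 sites of 1500 or more it was 206 (147 and 262). The quartile ranges of neighbouring bands overlapped, and those of the lowest and highest band did too. The median Chd7 width rose over the same bands from 507 to 539.5, 573.5 and 651 bp.

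The strong paired sites were also a growing share of the Sox10 peaks as the Sox10 score rose. Chromosomes 1 to 20 held 3546 Sox10 peaks of score 500 or more, narrower than 1500 bp and outside the dense bins, called strong Sox10 peaks here. Of these, 815 (23.0%) were strong paired sites, 843 carried a Chd7 peak that missed a criterion, and 1888 overlapped no Chd7 peak. From the lowest to the highest of the 4 Sox10 bands, the strong paired sites made up 18.7%, 23.2%, 29.3% and 35.6% of the strong Sox10 peaks (95% exact intervals 17.0% to 20.6% in the lowest and 30.1% to 41.3% in the highest). Any overlapping Chd7 peak was present at 43.0%, 45.8%, 53.6% and 58.3% of them, against 15.7% of all 38915 Sox10 peaks in the series. Among the strong Sox10 peaks with a Chd7 peak, the portion that met the whole rule also rose, from 43.5% through 50.7% and 54.7% to 61.0%. The Sox10 score and the presence of Chd7 are both part of the rule, so these shares describe the selection.

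From the Chd7 side, 2740 Chd7 peaks on the same chromosomes and outside the dense bins had a score of at least 100. Of these, 1740 overlapped a Sox10 peak and 1000 did not. The whole Chd7 list of 15310 peaks formed 6283 overlapping pairs, so no more than 6283 of all Chd7 peaks overlapped a Sox10 peak. The strong paired sites were 29.7% of the 2740.

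When the sites were ordered by the mean of their ranks for Chd7 and Sox10 score, the first lay on chromosome 2. There the Chd7 peak chr2:68242204-68242761 (score 413) sat inside the Sox10 peak chr2:68241878-68243005 (score 3100), with the centres 41 bp apart. The next was the Chd7 peak chr17:42278623-42279502 (score 405), whose centre was 7 bp from that of a Sox10 peak of score 2923. On chromosome 18 the centre of the Chd7 peak chr18:55799578-55800455 (score 387) lay 14 bp from that of a Sox10 peak of score 2366. The order was set by the scores, and the centre distances of the 10 leading sites, from 2.5 to 123 bp, lay on both sides of the median of 56 bp over all sites.

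Among the other best-ranked sites, chr1:250663749-250664834 (Chd7 score 316) and chr1:132828414-132829000 (score 328) had centre distances of 8 and 2.5 bp. The site chr7:91348974-91349525 paired a Chd7 score of 271 with a Sox10 score of 3100 at 98 bp, and chr5:121879283-121879741 paired 299 with 2170 at 123 bp. Another stood at chr2:12550912-12551831, with scores of 290 for Chd7 and 2318 for Sox10. Chromosome 18 held chr18:49030810-49031663 and chr18:49983770-49984656, with Chd7 scores of 333 and 362. The Chd7 peak lay wholly inside the Sox10 peak at all 10 of these sites. Chromosome 18 contributed 3 of the 10 sites and 34 of the 815. No gene is named at these positions, because the annotation at hand is of another build than rn5.

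The highest Sox10 scores are not ranked further, since 5 sites share a score of exactly 3100 and 1 lies just above it, the Sox10 peak chr7:37622288-37623782 (score 3104), whose Chd7 peak scored 189. The highest Chd7 score of the sites, 2292, belonged to chr18:86781051-86781439 over a Sox10 peak of score 504, barely above the threshold. The second highest Chd7 score, 566, was at chr14:46693823-46694647 over a Sox10 peak of score 572. These sites were picked out after their values were seen.

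Both of the highest Chd7 sites also had an unusual shape. At the chromosome 18 site the Chd7 peak was 389 bp wide and the Sox10 peak 406 bp, the narrowest Sox10 peak of all sites, and the edges of the peaks were at most 12 bp apart. At the chromosome 14 site the widths were 825 and 919 bp and the edges at most 50 bp apart. At the median site the larger of the 2 edge distances was 279 bp, and these were the only 2 of 815 sites with both edges within 50 bp. The lists hold no read coverage for these sites.

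The Chd7 peak typically occupied the middle of the Sox10 peak, a position that the rule itself favours through its limit of 200 bp between centres. Whether the Chd7 peak lay wholly inside also depends on this limit and on the widths. The median Chd7 peak of the sites was 545 bp wide (quartiles 456.5 and 647.5 bp) and the median Sox10 peak 1013 bp (898 and 1148 bp), so that Chd7 covered a median of 55.1% of the Sox10 width. The Sox10 peak extended a median of 226 bp beyond the Chd7 peak on the side of lower coordinates and 221 bp on the other side. At 794 of the 815 sites (97.4%, 95% exact interval 96.1% to 98.4%) the Chd7 peak lay wholly within the Sox10 peak. At the other 21 sites it reached beyond the lower edge in 12, the higher edge in 8 and both in 1, by a median of 25 bp and at most 106 bp. In the 4249 other pairs under the same limits on centre distance and Sox10 width, 94.2% (93.4% to 94.9%) of the Chd7 peaks lay wholly inside, although those Chd7 peaks were narrower.

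In bp, the centres coincided about as closely as in weaker pairs. The median centre distance was 56 bp (quartiles 26.25 and 96.25 bp), or 11.0% of the distance from the Sox10 centre to its edge. Centres were within 25 bp at 24.0% of the sites (95% exact interval 21.2% to 27.1%) and at 24.2% of the 4249 other pairs under the same limits (22.9% to 25.5%). Within 50 bp the shares were 45.9% and 44.2%, within 100 bp 77.4% and 76.6%, and within 150 bp 92.6% and 92.4%. At each of these distances the interval of the sites included the share of the other pairs. Sox10 widths were not matched here: the median was 1013 bp at the sites and 811 bp over all 5104 other pairs. Across the sites the centre distance had a Spearman's rho of -0.08 with the Chd7 score, -0.03 with the Sox10 score and 0.19 with the Sox10 width. The distance was longest in wide Sox10 peaks: its median was 43.5 bp at the 35 sites with a Sox10 peak narrower than 750 bp and 88 bp at the 115 sites in the widest of 4 width classes.

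**Figure D2:**
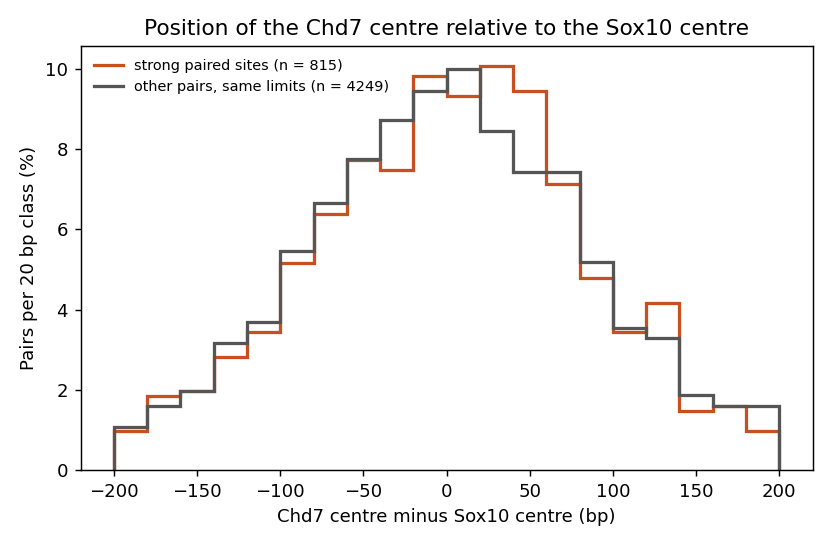
Chd7 centre minus Sox10 centre in bp (horizontal axis) against the share of pairs in each 20 bp class (vertical axis), for the 815 strong paired sites (orange) and for 4249 other pairs under the same limits on centre distance and Sox10 width (dark grey). Both outlines peak near 0 and fall off alike on either side; the limits at 200 bp are set by the rule.

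Neither side of the Sox10 centre was preferred along the chromosome. The Chd7 centre had the higher coordinate at 426 sites and the lower at 388, and at 1 site the centres were equal. The share at the higher coordinate was 52.3% (95% exact interval 48.8% to 55.7%), which includes an even split. The orientation of genes or motifs at the sites was not analysed here.

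Among the sites with the closest centres, the exact match was at chr11:86094020-86094539, with a Chd7 score of 239 and a Sox10 score of 964. A distance of 1 bp was found at chr16:58423213-58423843 (scores 243 and 2718), at chr6:51753239-51753731 (198 and 913) and at chr16:31970548-31971017 (159 and 625). The fifth, chr3:18667897-18668684, had a distance of 1.5 bp and scores of 176 and 1019. Their Sox10 scores thus covered much of the range of all sites.

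Chd7 peaks over Sox10 had larger median widths than Chd7 peaks without Sox10 in the same classes of Chd7 score. Chd7 width is not part of the rule but goes with the Chd7 score (Spearman's rho 0.48 over the 815 sites), so widths were compared within classes of that score. At Chd7 scores of 100 to 125, the median width was 466 bp at the 242 strong paired sites and 374 bp at the 393 Chd7 peaks without a Sox10 peak. From 125 to 150 it was 522 bp at 179 sites against 391 bp at 143 peaks, and from 150 to 200 it was 569 bp at 233 sites against 430.5 bp at 144 peaks. From 200 to 300 it was 639.5 bp (quartiles 543.75 and 735.75) at 140 sites against 370.5 bp (238.25 and 653) at 132 peaks. At scores of 300 or more it was 825 bp at 21 sites against 432.5 bp at 188 peaks. That last class has no upper limit: the highest score was 2292 at the sites, with the next at 566, and 3100 at the peaks without Sox10. The quartile ranges of the sites and of the peaks without Sox10 overlapped in every class.

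The median of the strong paired sites thus rose from class to class, whereas that of the Chd7 peaks without Sox10 stayed between 370.5 and 432.5 bp. Other overlapping pairs, which missed the Sox10 score or another criterion, had medians of 455, 481, 545, 630.5 and 709.5 bp in the same classes, closer to the strong paired sites than to the peaks without Sox10. The other pairs with a Sox10 score below 500 had medians of 448, 469, 533, 509 and 608.5 bp (412, 161, 107, 35 and 34 pairs), between the peaks without Sox10 and the strong paired sites in every class. A wider peak covers more sequence in which an overlap can fall, and the part of this in the difference was not tested.

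**Figure D3:**
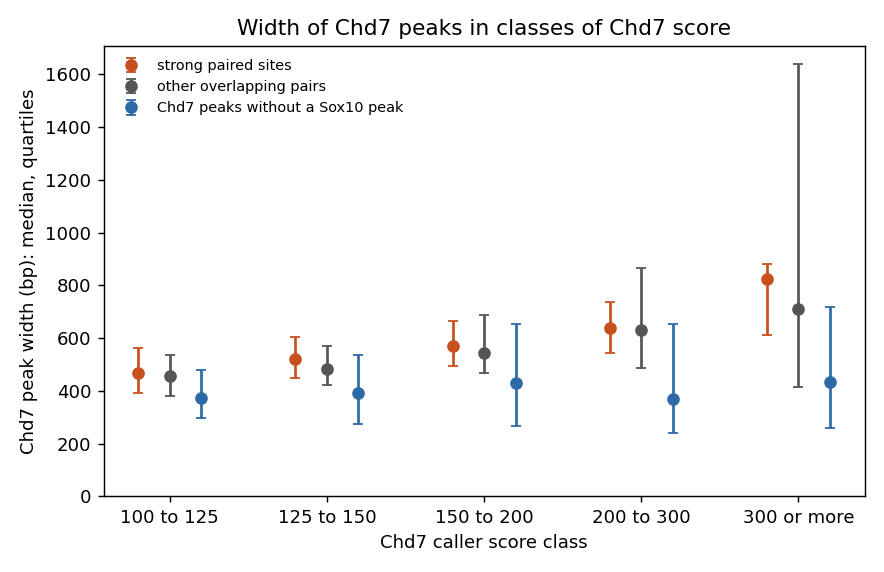
Width of Chd7 peaks in bp (vertical axis) in 5 classes of Chd7 caller score (horizontal axis), as medians with bars from the first to the third quartile. The strong paired sites (orange) rise from 466 to 825 bp, other overlapping pairs (dark grey) from 455 to 709.5 bp, and Chd7 peaks without a Sox10 peak (blue) stay between 370.5 and 432.5 bp.

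The Sox10 peaks of the sites were slightly wider than strong Sox10 peaks without Chd7. In the lowest Sox10 band, 500 to 750, the median Sox10 width was 950.5 bp at the sites and 904 bp at the 1047 peaks without Chd7. In the following bands it was 1017 against 924 bp, 1034.5 against 981.5 bp and 1128 against 1053 bp. The quartile ranges overlapped in every band. Strong Sox10 peaks with a Chd7 peak that missed the rule lay between both in each band, at 919.5, 1003, 1020 and 1064 bp.

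Other Sox10 peaks stood near many of the sites. Another Sox10 peak lay within 10 kb of the Sox10 peak, measured edge to edge, at 401 of the 815 sites, or 49.2% (95% exact interval 45.7% to 52.7%). Of the 1888 strong Sox10 peaks without Chd7, 753 had such a neighbour, or 39.9% (37.7% to 42.1%), and of the 5104 other pairs 43.3% (41.9% to 44.6%). The interval of the strong paired sites overlapped neither of these. The 843 strong Sox10 peaks with a Chd7 peak that missed the rule had a Sox10 neighbour in 47.0% of cases (43.6% to 50.4%), an interval that overlapped that of the sites. The nearest other Sox10 peak was a median of 10.4 kb away from a site and 14.6 kb away from a strong Sox10 peak without Chd7. Up to 5 other Sox10 peaks lay within 10 kb of a site, and 132 sites had 2 or more.

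The share was higher at the strong paired sites whatever their own Sox10 score. In the 4 Sox10 bands, from the lowest, a Sox10 neighbour was present at 49.4%, 45.1%, 51.1% and 52.4% of the strong paired sites and at 39.7%, 39.5%, 38.5% and 45.5% of the strong Sox10 peaks without Chd7. The intervals were apart in the lowest band alone and overlapped in the other 3. The share was higher at the strong paired sites on 18 of the 20 chromosomes. Chromosomes share the same libraries and are not replicates, so this count and those below are descriptions.

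The neighbours had scores close to those of Sox10 peaks at large. The 574 distinct Sox10 peaks within 10 kb of a site had a median score of 122 and scored below 500 in 90.2% of cases, against a median of 117 and 89.5% over the 37424 Sox10 peaks on the same chromosomes outside the dense bins. Neighbours with a score of 500 or more were less frequent beside the sites than beside strong Sox10 peaks without Chd7: within 50 kb, 23.7% of the sites had one (95% exact interval 20.8% to 26.8%), against 31.1% of the strong Sox10 peaks without Chd7 (29.0% to 33.2%). The share was lower at the strong paired sites on 17 of the 20 chromosomes. Strong Sox10 peaks with a Chd7 peak that missed the rule had such a neighbour in 27.2% of cases (24.2% to 30.3%) and other pairs in 23.4% (22.2% to 24.5%), both with intervals that overlapped that of the sites. For any Sox10 neighbour within 10 kb, and for one of score 500 or more within 50 kb, the intervals of the sites were thus apart from those of strong Sox10 peaks without Chd7. They overlapped those of strong Sox10 peaks whose Chd7 peak missed the rule. Within 10 kb, a neighbour of score 500 or more was present at 6.63% of the sites (5.02% to 8.56%). The share was 8.05% (6.86% to 9.37%) for strong Sox10 peaks without Chd7, and these intervals overlapped.

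Weak Sox10 peaks near the sites carried Chd7 at similar shares within 10 kb and within 50 kb. Of the 518 neighbours within 10 kb that scored below 500, 12.2% overlapped a Chd7 peak (95% exact interval 9.47% to 15.3%). Over all 33496 Sox10 peaks below 500 on the same chromosomes and outside the dense bins, the share was 11.8%. Beside strong Sox10 peaks without Chd7 it was 10.6% (8.62% to 12.9%). Within 50 kb the share was 13.2% beside the sites (11.8% to 14.8%) and 9.95% beside strong Sox10 peaks without Chd7 (9.0004% to 11.0%). The intervals thus overlapped within 10 kb and were apart within 50 kb, where they cover more neighbours (2063 against 518 beside the sites). The interval of the sites within 50 kb included the 11.8% over all Sox10 peaks below 500, and that of the peaks without Chd7 lay below it. Beside other pairs the share within 50 kb was 13.4% (12.7% to 14.1%). Beside strong Sox10 peaks with a Chd7 peak that missed the rule it was 11.4% (10.0% to 12.9%). That interval overlapped both that of the sites and that of the peaks without Chd7.

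Strong neighbours were compared over a wider distance. Within 100 kb of the strong paired sites lay 370 distinct other strong Sox10 peaks, of which 203 carried a Chd7 peak, or 54.9% (95% exact interval 49.6% to 60.0%). Within 100 kb of strong Sox10 peaks without Chd7 lay 962, of which 329 carried one, or 34.2% (31.2% to 37.3%). Beside the strong Sox10 peaks with a Chd7 peak that missed the rule it was 49.9% (45.1% to 54.7%), which overlapped the interval of the sites. Over all 3546 strong Sox10 peaks the share was 46.8%. The share was higher beside the strong paired sites on 17 of 20 chromosomes, and the neighbours of both sets had similar Sox10 scores, with medians of 734 and 757. Strong paired sites themselves made up 28.4% of the strong neighbours of the sites (23.8% to 33.3%), against 23.0% of all strong Sox10 peaks. They made up 14.7% (12.5% to 17.1%) of the strong neighbours of the peaks without Chd7. Beside the strong Sox10 peaks with a Chd7 peak that missed the rule it was 22.2% (18.3% to 26.4%), which overlapped the interval of the sites. The 2 sets of neighbours share peaks, and whether a strong Sox10 peak carries Chd7 was itself used to form the sets.

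Other Chd7 peaks were rarer around the sites than Sox10 peaks, as in all comparison sets. The Chd7 list is also the shorter, with 15310 against 38915 peaks. Another Chd7 peak lay within 10 kb at 116 sites, or 14.2% (95% exact interval 11.9% to 16.8%), and within 50 kb at 48.3% (44.9% to 51.8%). For strong Sox10 peaks without Chd7 the shares were 9.38% (8.10% to 10.8%) and 39.6% (37.4% to 41.8%). For strong Sox10 peaks with a Chd7 peak that missed the rule they were 16.0% (13.6% to 18.7%) and 47.4% (44.0% to 50.9%), with intervals that overlapped those of the sites. Other pairs had a second Chd7 peak within 10 kb in 17.0% of cases (16.0% to 18.1%), above the strong paired sites though with overlapping intervals. A second Chd7 peak on the same Sox10 peak counts here, which strong Sox10 peaks without Chd7 cannot have by definition. Another Chd7 peak lay on the Sox10 peak or within 100 bp at 1.35% of the sites and 4.37% of the other pairs. For strong Sox10 peaks without Chd7 it was 0.053%, so part of these differences follows from how the sets were formed. The share within 10 kb was higher at the sites than at strong Sox10 peaks without Chd7 on 15 of 20 chromosomes, and within 50 kb on 17. At 394 of the 815 sites no other peak of either protein lay within 10 kb.

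**Figure D4:**
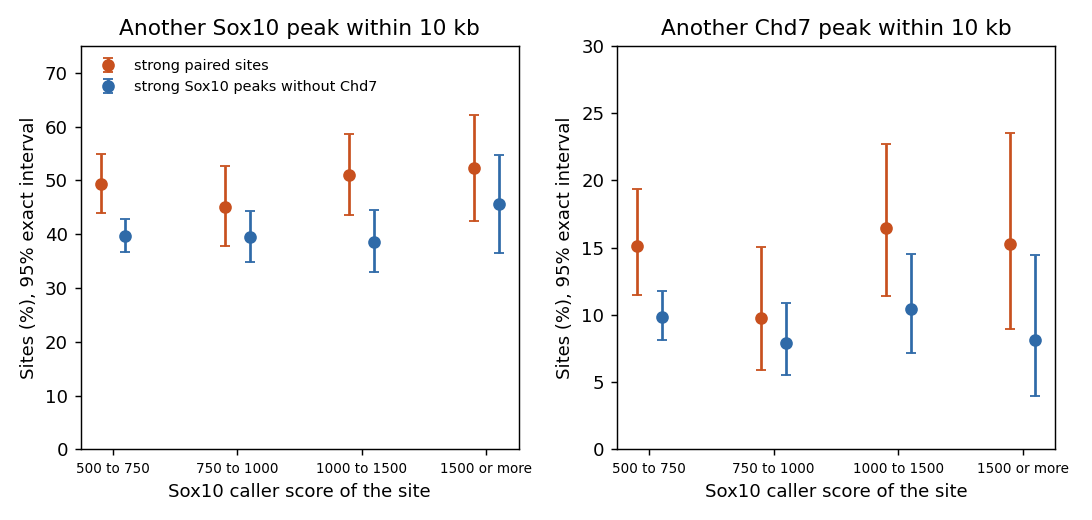
Share of sites with another Sox10 peak (left) or another Chd7 peak (right) within 10 kb, on the vertical axes in percent, in 4 bands of the site's own Sox10 score; points are shares and bars 95% exact binomial intervals. In each band the 815 strong paired sites (orange) lie above the 1888 strong Sox10 peaks without Chd7 (blue), with overlapping bars in most bands.

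The sites were sparse along the chromosomes. When sites with Sox10 centres within 100 kb were joined, 712 remained alone, 41 groups held 2 and 7 groups held 3. Thus 103 sites (12.6%, 95% exact interval 10.4% to 15.1%) had another site in reach. Joined in the same way, 41.1% of all 3546 strong Sox10 peaks and 33.3% of the 1888 without Chd7 had another of their own set in reach, but these sets are larger and the shares grow with the number of peaks. The closest 2 sites were 2951 bp apart on chromosome 7: the Sox10 peak chr7:91344625-91345691 (score 1791, Chd7 score 174) lay next to the site chr7:91348974-91349525, whose Sox10 score of 3100 was among the highest.

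The tightest group of 3 covered 31.4 kb at chr15:71387883-71419286. Its sites had Sox10 scores of 1428, 1290 and 653 and Chd7 scores of 246, 154 and 108, falling together along the stretch. A group of 34.2 kb at chr8:26385906-26420143 had Sox10 scores of 1146, 1107 and 1938 with Chd7 scores of 221, 268 and 174, where the strongest Sox10 peak had the weakest Chd7 peak. In the group chr17:42203904-42279794 the site of Chd7 score 405 stood with sites of 218 and 112. Both scores therefore varied within groups, in the same or in opposite order.

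The other groups of 3 were chr1:193991675-194051095, chr1:48375680-48523085, chr3:43566794-43695584 and chr9:95497789-95618386, with spans of 59.4, 147, 129 and 121 kb. Their Chd7 scores ran from 106 to 185 and their Sox10 scores from 504 to 1326. In the same order, the spans held 6, 4, 8 and 6 Sox10 peaks in all, so each contained at least 1 Sox10 peak outside the rule.

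The sites were spread over all 20 chromosomes, from 83 on chromosome 2 and 81 on chromosome 1 to 18 each on chromosomes 19 and 20. As a share of the strong Sox10 peaks they ran from 15.9% on chromosome 10 (39 of 246, 95% exact interval 11.5% to 21.0%) to 28.6% on chromosome 16 (30 of 105, 20.2% to 38.2%). On 18 chromosomes the interval included the 23.0% over all 20. Chromosome 10 and chromosome 1 (17.7%, 14.3% to 21.5%) lay below it, and none lay above. The median Chd7 score of the sites varied little between chromosomes, from 137 on chromosome 11 to 165 on chromosome 17, while the median Sox10 score ran from 651 on chromosome 16 to 962 on chromosome 18.

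**Figure D5:**
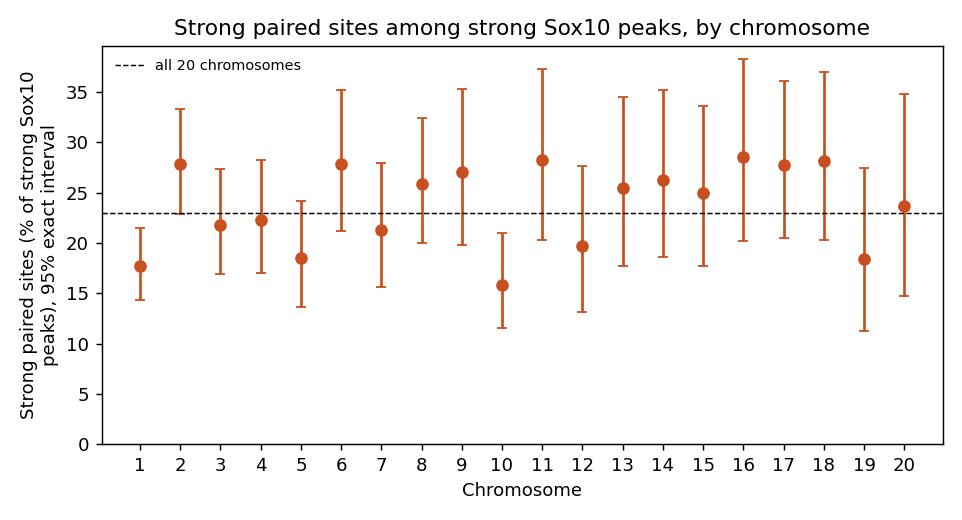
Strong paired sites as a percentage of the strong Sox10 peaks (vertical axis) on each of chromosomes 1 to 20 (horizontal axis), with 95% exact binomial intervals; the dashed line is the 23.0% over all 20. The intervals of chromosomes 1 and 10 lie below the line, and those of the other 18 cross it.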

How the data were processed

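Per the submitters' processing notes, CASAVA, Bowtie2, MACS and build rn5 were used. Neither their versions and parameters nor any input control or filter is given in the sources used here. Each list that the authors deposited gives a caller score per peak, never below 50. The scale of this score is not stated, so it was used only to select and rank peaks within a list, and scores of Chd7 and Sox10 are not on a common scale. No deposited peak was removed except by the rule. Overlaps and neighbours were computed in Python 3.11.15 with numpy 2.4.6, pandas 2.3.3 and scipy 1.17.1, and the 6283 pairs were also counted with bedtools 2.31.1. The membership rule, apart from the removal of dense bins, was tested on simulated data. The simulation held no dense bin and no Sox10 peak with more than a single Chd7 peak. Coordinates are 1-based on rn5. The members, comparison sets and measures were chosen with earlier results of these data known.

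The positions named are the first 10 sites by the mean of their Chd7 and Sox10 score ranks, the 5 with the closest centres, 5 pairs on either side of each threshold, and all groups of 3 or more sites within 100 kb. Alternatives changed 1 criterion at a time. With 1 library per antibody no comparison was tested. Genes, gene lists and motifs at the sites were not analysed, since the annotation and sequences at hand are of the build GRCr8, and no sequence is printed for the same reason.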

Additional observations from a re-analysis of the deposited data

How the results depend on the processing

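Under 5 changes to the rule, 22 of 30 values of 6 results stayed within the 95% interval of the reported value, or within 1.5 times for the number of sites. The number of sites, 815, was 394 with a Chd7 score of at least 150 and 287 with a Sox10 score of at least 1000. The median Chd7 width, 545 bp, was 604.5 and 595 bp under these settings, and the share of sites with another site within 100 kb, 12.6%, was 7.36% and 3.14%, since fewer sites leave fewer neighbours. With centres no more than 100 bp apart that share was 8.87%, and the Chd7 peak lay wholly inside the Sox10 peak in 98.4% of cases. An overlap of at least 50% of the Chd7 peak left all 815 sites, so its values could not differ from those reported. With no bin left out there were 822 sites, which include these 815. Many of the unmoved values therefore come from settings that changed the sites little or not at all. Of 6 alternatives added after seeing the data, 2 moved a difference between the sites and strong Sox10 peaks without Chd7. The excess of sites with a Sox10 neighbour, 9.32 percentage points within 10 kb, was 4.68 points within 5 kb. The deficit of Sox10 neighbours of score 500 or more, -7.41 points within 50 kb, was -3.60 points within 20 kb. The cause was not tested. No paired analysis was possible because there was a single library for each protein, and for the same reason no replicate could be left out. The alternatives for genes near the sites and for motifs were not run. The depth of the libraries is unknown, and sites of either protein below a score of 50 cannot be seen.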

Other observations

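Few pairs met the score, distance and width criteria at positions that the rule leaves out. Chromosome X had 2, chrX:30213684-30214126 (Chd7 score 195, Sox10 score 726) and chrX:150938179-150938725 (174 and 502), among 46 strong Sox10 peaks, a share of 4.35% (95% exact interval 0.531% to 14.8%). The share over chromosomes 1 to 20 was 23.0%, above that interval. Sequences outside the assembled chromosomes held another 2 pairs.

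The dense bins of chromosomes 1 to 20 held 7 such pairs among 18 strong Sox10 peaks, in 4 bins. Of these, 5 lay on chromosome 1, at Chd7 starts from 187677275 to 188182885. Their Chd7 scores, 1871 to 3100, were far above the median of 147 at the strong paired sites, whereas their Sox10 scores, 573 to 919, were not. Their centres were 0 to 16.5 bp apart. The pair on chromosome 2, chr2:180243168-180244463, had a Chd7 score of 411, a Sox10 score of 872 and a centre distance of 2 bp. The pair on chromosome 8, chr8:126987111-126987588, had a Chd7 score of 109 and a centre distance of 115.5 bp. The 2 strong paired sites with the highest Chd7 scores, on chromosomes 18 and 14, lay outside the dense bins and also had close centres, 3.5 and 3 bp apart. Their Sox10 scores, 504 and 572, were below those of the 5 pairs on chromosome 1, and the Chd7 score was within their range at the chromosome 18 site (2292) and below it at the chromosome 14 site (566). These values were set side by side after they were seen, and no relation was tested.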
